A study of Mus musculus with 5 samples.

Results

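The erythropoietin (EPO) pathway was followed at the RNA level in fetal erythroid cells of embryos in which Csnk2b, the gene of the regulatory subunit of the protein kinase CK2, was targeted in blood-forming cells. The genes were 10 listed genes of the pathway, found by their mouse symbols among the 39179 genes of the count table: 4 genes of the receptor machinery (Epor, Jak2, Stat5a and Stat5b) and 6 target genes (Cish, Socs2, Socs3, Pim1, Erfe and Serpina3g). All 10 were found, and all 10 passed the filter on low counts, so they were among the 13000 genes tested. Serpina3g passed that filter on its KO libraries alone and had to be higher there to be tested; it is described by its counts. The libraries held mRNA from C57BL/6 fetal liver cells taken at 14.5 days post conception and sorted for TER119, an antigen that erythroid cells gain as they mature. The 2 KO libraries came from embryos of genotype Csnk2bfl/fl Vav+/Cre and the 3 control libraries from embryos of genotype Csnk2b+/+ Vav+/Cre, all labelled as not treated. Controls therefore carry the Cre transgene too. The Vav1 promoter drives Cre in blood-forming cells in general and not in the erythroid lineage alone. Csnk2b in other cells of the embryo was not measured here.

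EPO is the hormone on which red cell production depends. Its receptor has no kinase activity of its own and works through the bound kinase JAK2, which phosphorylates the receptor and the transcription factors STAT5A and STAT5B; these then enter the nucleus and switch on target genes. Among the targets are inhibitors of the same pathway (CISH and the SOCS proteins), the survival kinase PIM1 and the hormone erythroferrone, which tells the liver to make less hepcidin so that more iron reaches the marrow. TER119-positive cells of the fetal liver span the stages in which this pathway supports survival and those in which the receptor is being lost.

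The promoters shown here are those of the target with the largest rise among well-counted genes (Erfe), of the 3 genes whose window holds the STAT5 consensus TTCNNNGAA (Serpina3g, Cish and Socs3), and of the receptor. RefSeq promoter windows on GRCm38.p6, running from 250 bases before to 50 bases after a start site, were at hand for 9 of the 10 genes, all but Socs2. The stretches below end 30 bases after the start. Capitals mark TTCNNNGAA, which reads alike on both strands, and the GATA consensus AGATAA, printed as TTATCT where it lies on the other strand. They lie at chr1:91366180-91366459, plus strand (Erfe), chr12:104235897-104236176, plus strand (Serpina3g), chr9:107296409-107296688, plus strand (Cish), chr11:117969337-117969616, minus strand (Socs3) and chr9:21963547-21963826, minus strand (Epor).
Erfe: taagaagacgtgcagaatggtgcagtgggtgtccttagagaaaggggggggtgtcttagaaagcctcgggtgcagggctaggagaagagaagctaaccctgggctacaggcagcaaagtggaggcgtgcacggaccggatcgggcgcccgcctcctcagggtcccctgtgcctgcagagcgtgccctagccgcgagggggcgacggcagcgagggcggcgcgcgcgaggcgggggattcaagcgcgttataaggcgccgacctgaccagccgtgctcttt
Serpina3g: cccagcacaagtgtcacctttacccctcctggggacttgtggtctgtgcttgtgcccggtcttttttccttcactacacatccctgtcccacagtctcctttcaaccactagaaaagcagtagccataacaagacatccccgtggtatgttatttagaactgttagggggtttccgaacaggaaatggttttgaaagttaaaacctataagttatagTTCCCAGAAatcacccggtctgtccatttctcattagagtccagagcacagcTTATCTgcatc
Cish: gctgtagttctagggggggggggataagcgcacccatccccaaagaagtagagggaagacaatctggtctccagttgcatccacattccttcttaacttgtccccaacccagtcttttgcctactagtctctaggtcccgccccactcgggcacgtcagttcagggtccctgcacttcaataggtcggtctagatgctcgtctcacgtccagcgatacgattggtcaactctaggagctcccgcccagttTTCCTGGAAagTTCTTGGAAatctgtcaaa
Socs3: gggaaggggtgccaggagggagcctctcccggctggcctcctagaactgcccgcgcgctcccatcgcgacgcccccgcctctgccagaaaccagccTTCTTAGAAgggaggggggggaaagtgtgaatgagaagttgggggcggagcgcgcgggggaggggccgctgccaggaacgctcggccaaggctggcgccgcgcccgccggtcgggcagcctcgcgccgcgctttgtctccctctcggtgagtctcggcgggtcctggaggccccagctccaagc
Epor: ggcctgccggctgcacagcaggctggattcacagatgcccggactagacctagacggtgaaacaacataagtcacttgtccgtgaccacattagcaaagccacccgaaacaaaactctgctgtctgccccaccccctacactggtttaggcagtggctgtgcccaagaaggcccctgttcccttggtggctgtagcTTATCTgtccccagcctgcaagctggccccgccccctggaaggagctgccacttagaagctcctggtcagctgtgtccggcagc
Cish held 2 matches to TTCNNNGAA, TTCCTGGAA and TTCTTGGAA, at and just after the start site. Socs3 held 1, TTCTTAGAA, that begins at position -154 from the start, and Serpina3g held 1, TTCCCAGAA, at position -33. The window of Erfe held neither motif, and that of Epor held 1 match to AGATAA, at position -54. No 2 matches overlapped. Of 32851 RefSeq windows of this length, 8.3% held TTCNNNGAA and 11.2% held AGATAA. Among the 9 genes with a window, 3 held TTCNNNGAA in at least 1 window and 2 held AGATAA; 5 held neither. Over all 27025 genes of the table, 9.55% and 12.7% held them. A match is a description of the sequence and not a binding site.

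The targeted gene was lower in both KO libraries. Csnk2b stood at 112 and 95.6 CPM (counts scaled to TMM library size) in KO replicates 1 and 2, against 186, 186 and 169 CPM in control replicates 1, 2 and 3. It fell by 0.80 ± 0.09 (SE) on the log2 scale (adjusted p = 0.0018 in edgeR). Library totals ran from 13187094 to 15366021 counts, so 1 CPM stood for 13 to 15.5 counts. Whether a library came from 1 embryo or from a pool is not said in the labels, so p-values speak of the spread among these libraries, which may be technical. In libraries of sorted bulk cells, fewer cells of a type and less RNA per cell cannot be told apart.

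Per kilobase of exons, the receptor and Pim1 were by far the most abundant of the 10 genes. In the KO cells Pim1 was at 207 RPKM ± 1.1 and Epor at 206 RPKM ± 9.96 (SD, n = 2 each), levels that did not differ beyond their spread. In the controls Epor was at 211 RPKM ± 16.2 and Pim1 at 162 RPKM ± 17.4 (SD, n = 3 each). Next came Jak2, at 39.5 RPKM ± 4.12 in KO and 46.9 RPKM ± 1.3 in control cells, and Stat5b, at 23.8 RPKM ± 0.66 in KO and 21.2 RPKM ± 0.72 in control cells (SD, n = 2 and 3). Stat5a, its close relative, was lower than Stat5b, at 5.85 RPKM ± 0.29 in KO and 7.05 RPKM ± 0.31 in control cells. In the KO cells Erfe at 15.6 RPKM ± 1.72 and Socs3 at 14.9 RPKM ± 1.57 lay within each other's spread, followed by Cish at 9.3 RPKM ± 1.19. In control cells Socs3 was at 12.5 RPKM ± 0.64, and Cish at 7.88 RPKM ± 0.62, Erfe at 7.39 RPKM ± 0.60 and Stat5a did not part beyond their spread. The lowest were Socs2, at 1.17 RPKM ± 0.23 in KO and 0.68 RPKM ± 0.036 in control cells, and Serpina3g, at 0.53 RPKM ± 0.13 in KO and 0.14 RPKM ± 0.021 in control cells. With the longest annotated transcript as the length, 8 of the 10 genes kept their place in the KO order, and Erfe and Socs3 changed places. By that length Pim1 at 258 RPKM ± 1.36 and Epor at 232 RPKM ± 11.2 did part in the KO cells. In the control cells Stat5a at 12.7 RPKM ± 0.57, Cish at 10.8 RPKM ± 0.85 and Erfe at 7.39 RPKM ± 0.60 also parted. Which of these genes are level thus depends on the length used.

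**Figure D1:**
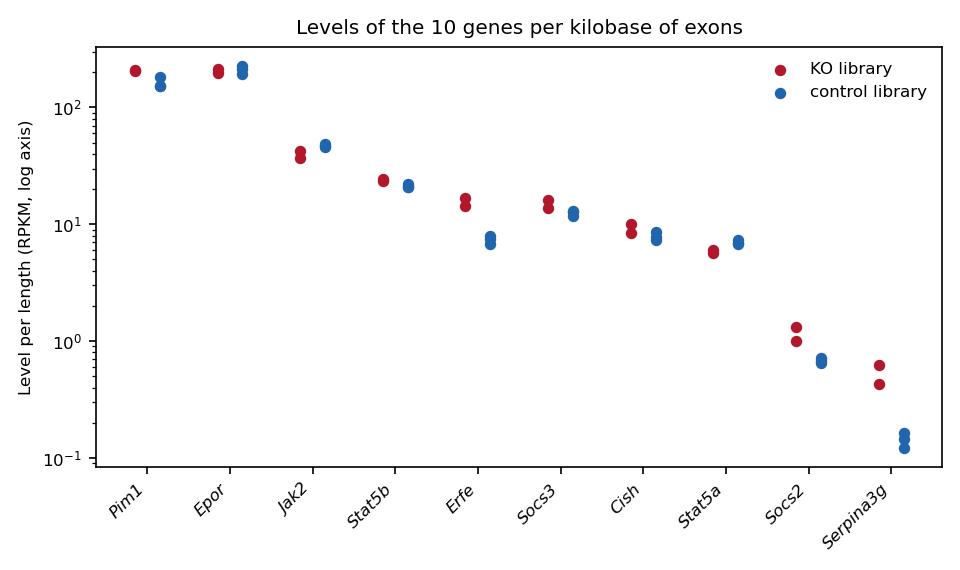
Level of each gene in counts scaled to merged exon length and library size (RPKM, log axis), 1 point per library, KO libraries in red left of control libraries in blue, ordered by the KO mean. Pim1 and Epor lie near 200 RPKM and Serpina3g below 1. The gap between KO and control points is widest for Erfe, Socs2 and Serpina3g, of which Serpina3g had to be higher in KO to be tested. The groups overlap for Epor and Cish.

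In KO cells 2 of the 9 genes that did not need their KO libraries to pass the filter, Erfe and Socs2, rose and none fell at an edgeR adjusted p below 0.05; over all 13000 genes, 5.15% rose and 1.83% fell. Both are targets. DESeq2 called 3 of the 9 higher, with Pim1 added, and limma-voom 2, and neither called any lower. Over all genes, DESeq2 called 4.18% higher and 2.22% lower, and limma-voom 4.71% higher and 1.77% lower. At an unadjusted edgeR p below 0.05, 6 of the 9 genes were higher and 2 were lower in KO, against 23.8% of the genes tested in either direction. With any 1 control or KO replicate 2 left out, Erfe alone of the 9 passed, in fits where 1.62% to 4.03% of all genes rose. The counts are a description, and no p was computed for the genes as a group.

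**Figure D2:**
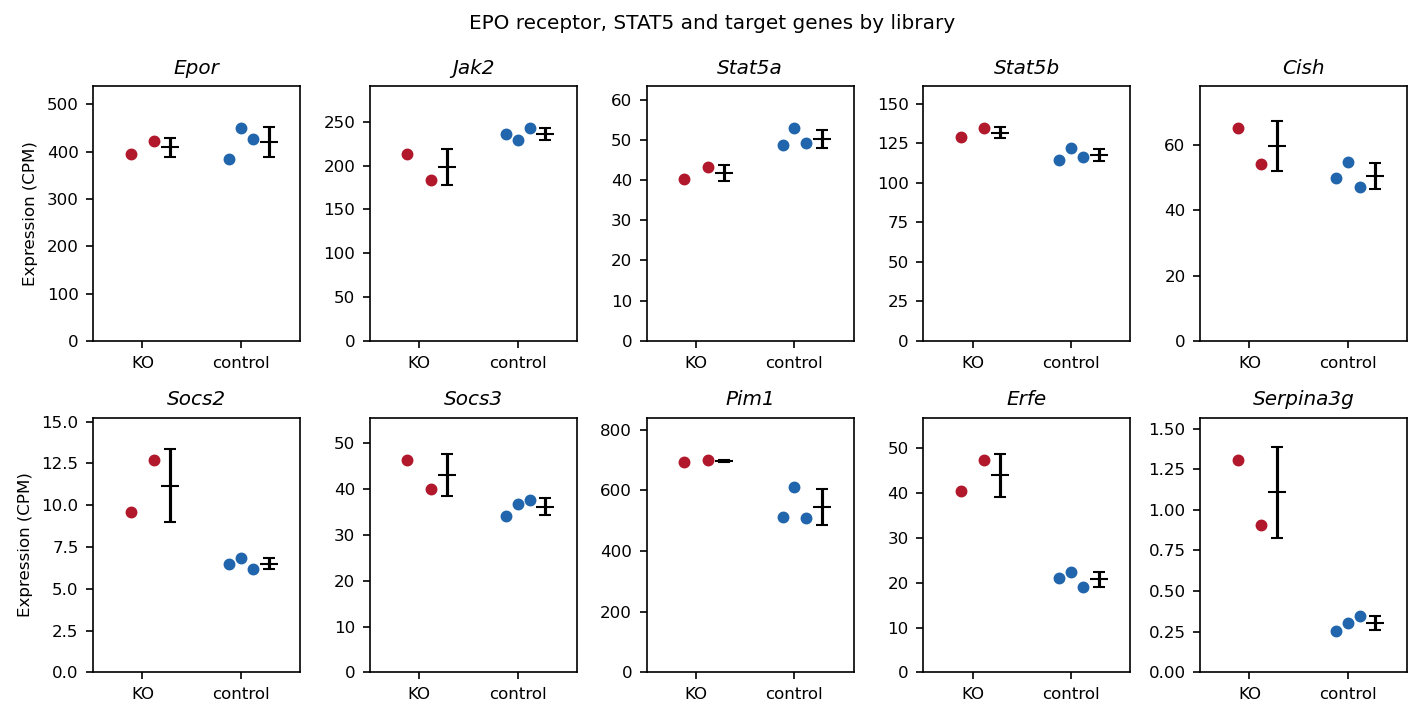
Expression in CPM in each library for the 10 genes, KO (red) left of control (blue) in every panel, with the mean and SD of each group as a bar beside the points (n = 2 KO and 3 control libraries). Both KO points lie above all controls for Stat5b, Socs2, Socs3, Pim1, Erfe and Serpina3g and below all controls for Jak2 and Stat5a. Of all genes tested, 21.9% had both KO libraries above all controls and 19.3% had both below. Serpina3g had to be higher in KO to be tested.

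None of the 4 machinery genes passed the test in edgeR, DESeq2 or limma-voom, although 3 of them had an unadjusted edgeR p below 0.05. Epor, the receptor itself, was at 395 and 423 CPM in KO replicates 1 and 2, against 385, 449 and 426 CPM in control replicates 1, 2 and 3. The groups overlapped throughout, and the log2 fold change was -0.04 ± 0.09 (SE; adjusted p = 0.83 in edgeR), with a 95% interval from -0.24 to 0.16. Its sign turned to 0.01 without control replicate 2, so no direction can be given. Epor spans 21958897 to 21963506 of chromosome 9, minus strand. Jak2, the receptor-bound kinase, was at 213 and 184 CPM in the KO libraries, against 236, 229 and 242 CPM in the controls. Both KO libraries lay below all controls, KO replicate 2 further than KO replicate 1. The log2 fold change of Jak2 was -0.25 ± 0.08 (adjusted p = 0.11 in edgeR), and of the 12 alternatives it passed in 1, without KO replicate 1 (-0.38, adjusted p = 0.0079 in edgeR). In that fit, where 9.28% of all genes fell, the lone KO library is assumed to vary like the controls.

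The 2 STAT5 genes stood on opposite sides of the controls. Stat5a was at 40.3 and 43.2 CPM in KO replicates 1 and 2, against 48.7, 52.8 and 49.2 CPM in control replicates 1, 2 and 3, with a log2 fold change of -0.27 ± 0.08 (adjusted p = 0.083 in edgeR). Stat5b was at 129 and 134 CPM in the KO libraries, against 115, 122 and 116 CPM in the controls, with a log2 fold change of 0.16 ± 0.07 (adjusted p = 0.19 in edgeR). Neither passed in any alternative run, and both kept their sign in all 12. The arrangement of libraries is common: 21.9% of all genes tested had both KO libraries above all controls, and 19.3% had both below. Library size drops out of the ratio between the pair. It was 3.21 and 3.11 Stat5b counts per Stat5a count in KO replicates 1 and 2, against 2.35, 2.31 and 2.35 in control replicates 1, 2 and 3. The mean ratio was 3.16 ± 0.067 in KO and 2.34 ± 0.025 in control cells (SD, n = 2 and 3), with no overlap between the groups. The ratio was formed after the 2 genes were seen on opposite sides of the controls, so it restates their values and is given with no test. The genes lie next to each other on chromosome 11 in mm10, Stat5b from 100780731 to 100850724 on the minus strand and Stat5a from 100859351 to 100885169 on the plus strand. Of the distinct 50-base stretches of their GENCODE M21 transcripts, 8.21% of those in Stat5a also occur in Stat5b, and 11% of those in Stat5b in Stat5a, so a part of the reads may have been divided between them or left out. Stat5a also shares 72 exonic bases with Stat3 on the other strand. Stat3 was not called, at 76.7 and 78.8 CPM in KO and 76.2, 75.4 and 74.7 CPM in control libraries (log2 fold change 0.04 ± 0.07, edgeR adjusted p = 0.74).

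Erfe was the target with the clearest rise. This gene encodes erythroferrone, the hormone by which erythroblasts under EPO lower hepcidin in the liver. Its CPM was 40.6 and 47.4 in KO replicates 1 and 2, against 21.1, 22.3 and 19.0 in control replicates 1, 2 and 3. The lower KO library thus stood well above the highest control. Erfe rose 2.12-fold, by 1.08 ± 0.10 on the log2 scale (95% interval 0.85 to 1.32, edgeR adjusted p = 0.00093), and it passed in all 12 alternatives, with log2 fold changes of 0.96 to 1.17. The gene lies on the plus strand of chromosome 1 from 91366430 to 91374217 and shares 357 exonic bases with Ilkap on the opposite strand. The sources used here do not say if strand was used in counting, so reads of that stretch cannot be assigned to either gene. Ilkap had 1121 and 1579 counts in the KO libraries, against 1392, 1128 and 1269 counts in the controls, groups that overlap. Of the other erythroid hepcidin regulators listed, Twsg1 was tested and not called, at 30.4 and 26.3 CPM in KO and 31.8, 30.7 and 31.3 CPM in control libraries. Gdf15, a stress cytokine, had 6 and 8 counts in the KO libraries and 0, 1 and 0 in the controls, too few to be tested.

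The SOCS-family genes encode inhibitors of cytokine receptors and JAK kinases, and of the 3 listed 1 passed. Socs2, known for its brake on growth hormone signalling, was at 9.61 and 12.7 CPM in KO replicates 1 and 2, against 6.50, 6.86 and 6.17 CPM in control replicates 1, 2 and 3. It rose 1.72-fold, by 0.78 ± 0.16 on the log2 scale (adjusted p = 0.019 in edgeR). The call was lost when any 1 control or KO replicate 2 was left out (adjusted p of 0.075 to 0.095) and without a filter on low counts (0.083), while the log2 fold change stayed between 0.56 and 0.94. Socs2 spans 95385362 to 95417180 of chromosome 10, minus strand, and 4.58% of its 50-base transcript stretches occur in other genes. Cish, whose product binds the phosphorylated receptor and competes with STAT5, was at 65.1 and 54.3 CPM in the KO libraries, against 49.9, 54.9 and 47.0 CPM in the controls. KO replicate 2 lay inside the range of the controls, and the log2 fold change of 0.24 ± 0.10 did not pass (adjusted p = 0.20 in edgeR). Cish overlaps the pseudogene Gm17040 on the opposite strand, which had 4 to 10 counts in any library. Socs3, an inhibitor of JAK kinases and of receptors of the interleukin-6 type, was at 46.3 and 39.9 CPM in KO and 34.0, 36.7 and 37.5 CPM in control libraries. Both KO libraries lay above all controls, KO replicate 2 only narrowly, with a log2 fold change of 0.26 ± 0.09 (adjusted p = 0.14 in edgeR). Which KO library was the higher differed by gene: Cish and Socs3 were higher in KO replicate 1 and Socs2 in KO replicate 2. Cish and Socs3, whose promoters above hold TTCNNNGAA, did not pass, and Socs2, which did, had no promoter window to compare. Serpina3g, the other gene with that motif, is described by its counts below.

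Pim1, a serine/threonine kinase that promotes survival, was the most abundant of the 6 listed targets. It was at 695 and 700 CPM in KO replicates 1 and 2, against 511, 612 and 510 CPM in control replicates 1, 2 and 3. The KO libraries were nearly level with each other, and control replicate 2 stood between them and the other controls. The log2 fold change of 0.36 ± 0.10 missed the threshold in edgeR (adjusted p = 0.062) and in limma-voom (0.0585) and passed in DESeq2 (0.012). Its 95% interval in edgeR ran from 0.14 to 0.58. Pim1 lies on chromosome 17, as Csnk2b does, from 29490753 to 29496112 and 5.62 Mb from it. Stretches of 488 exonic bases overlap the antisense gene Gm26885, which had 3 to 9 counts in any library. Serpina3g, a protease inhibitor also called Spi2A, was near the limit of detection, with 17 and 14 counts in the KO libraries, against 4, 4 and 5 counts in the controls. These are 1.31 and 0.91 CPM in KO and 0.26, 0.30 and 0.35 CPM in control libraries. Both KO libraries lay above all controls. As the filter on low counts could let Serpina3g in by its KO libraries alone, its fit beside the other genes is not read as a test. With no filter its log2 fold change was 1.82 (adjusted p = 0.045 in edgeR). After the filter it missed the threshold in DESeq2 (adjusted p = 0.16). It also missed it in edgeR without control replicate 1 or 2 (adjusted p = 0.065 each). Of its distinct 50-base transcript stretches 15.5% occur in other genes, most of them SERPINA3 paralogs. Of 10 such paralogs none was tested, 6 had no count in any library, and Serpina3f, the most abundant, had 4 and 2 counts in KO and 2, 1 and 2 counts in control libraries.

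**Figure D3:**
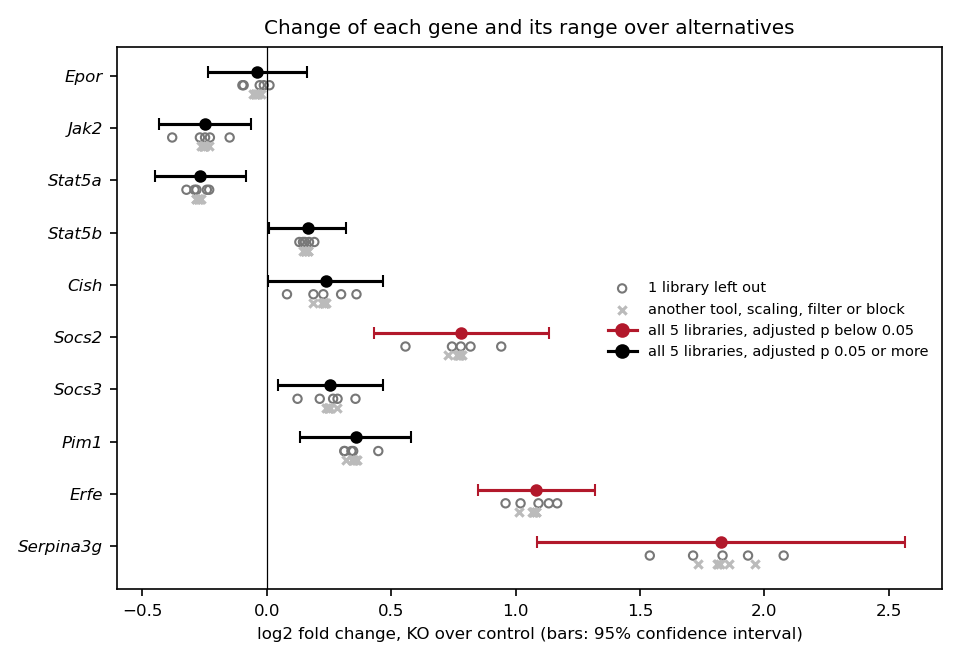
Log2 fold change of each gene, KO over control, with its 95% confidence interval from edgeR on all 5 libraries (red where the adjusted p is below 0.05). Open circles show the fits that leave out 1 library and crosses those with another tool, scaling, filter or replicate block. Erfe and Socs2 lie above 0.5 in every fit shown, Serpina3g is drawn though it passed the filter on its KO libraries alone, and Epor lies on both sides of 0.

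Of 9 further EPO and STAT5 targets tested, 2 rose and none fell in edgeR; DESeq2 called these 2 higher and 1, Tfrc, lower, and limma-voom called 1, Ccnd2, higher. Ccnd2, a D-type cyclin, was at 149 and 167 CPM in KO, against 103, 92.6 and 107 CPM in control libraries, a 1.56-fold rise (adjusted p = 0.0036 in edgeR) that passed in all 12 alternatives. Podxl, a sialomucin of the cell surface, was at 201 and 260 CPM in KO and 168, 177 and 165 CPM in control libraries, a 1.36-fold rise (adjusted p = 0.038 in edgeR) that was lost when any 1 control or KO replicate 2 was left out (adjusted p of 0.12 to 0.14) and was at the threshold in limma-voom (0.05). Bcl2l1 and Tfrc did not pass in edgeR. Bcl2l1, for the survival factor BCL-XL, was at 424 and 405 CPM in KO and 405, 477 and 465 CPM in control libraries, and Tfrc, the transferrin receptor, had a log2 fold change of -0.33 ± 0.11 (adjusted p = 0.11 in edgeR). The median over these 9 was -0.06 on the log2 scale, beside 0.01 for all genes tested.

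Of 6 further SOCS and PIM genes tested, Pim3 rose, at 17.0 and 29.8 CPM in KO and 10.4, 11.9 and 10.8 CPM in control libraries (2.13-fold, edgeR adjusted p = 0.016). That call was lost when any 1 control was left out (adjusted p of 0.054 to 0.088). Socs1 was not tested, with 6 and 2 counts in KO and 1, 0 and 0 counts in control libraries. Of the further JAK and STAT genes, Stat2, which carries interferon signals, rose. Stat2 was at 77.2 and 39.1 CPM in KO and 28.4, 28.7 and 27.1 CPM in control libraries, a 2.06-fold rise (adjusted p = 0.0275 in edgeR). It missed the threshold with any 1 control left out (adjusted p of 0.081 to 0.12), with DESeq2 (0.067) and with limma-voom (0.051), and its log2 fold change was 0.46 without KO replicate 1 in place of 1.04. Of 10 interferon-stimulated genes 9 were tested and called higher in edgeR. Xaf1 passed the filter on its KO libraries alone, with 253 and 22 counts in KO and 9, 5 and 7 counts in control libraries, so its rise was a condition of its test; the other 8 rose. Bst2, Isg15, Irf7 and Usp18 had the smallest p, with log2 fold changes of 2.17 to 5.82, and passed in all 12 alternatives. Their summed level, all 10 included, was 1267 and 389 CPM in KO replicates 1 and 2, against 75.7 to 102 CPM in the controls. KO replicate 1 was thus the higher of the pair in this sum as in Stat2, Cish, Socs3 and Serpina3g. It was the lower in Erfe, Socs2 and Pim3. Interferon-stimulated genes lay on both sides. Bst2 was lower in KO replicate 1 (33.7 CPM) than in KO replicate 2 (39.6 CPM), unlike the other genes in the sum. The part of the interferon response in the values of the 10 genes of the pathway was not tested.

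None of 9 further regulator genes of the pathway, such as the phosphatase gene Ptpn6 and the adaptor gene Sh2b3, was called in edgeR, DESeq2 or limma-voom. Nor had any of them an unadjusted edgeR p below 0.05. The most abundant, Ptpn11, was at 257 and 261 CPM in KO and 236, 243 and 237 CPM in control libraries (log2 fold change 0.12 ± 0.07, edgeR adjusted p = 0.32). Of 13 adaptors and kinases below the receptor 2 fell and none rose in edgeR. Pik3r1, the regulatory subunit gene of PI3-kinase, was at 146 and 115 CPM in KO and 183, 178 and 180 CPM in control libraries, a 1.38-fold lower level (adjusted p = 0.025 in edgeR), and Gab1, an adaptor, was at 125 and 112 CPM in KO and 147, 149 and 148 CPM in control libraries (adjusted p = 0.034 in edgeR). Pik3r1 missed the threshold with any 1 control left out (adjusted p of 0.087 to 0.11) and Gab1 without any 1 control or KO replicate 2 (0.095 to 0.13). Of 14 receptors tested, mostly of cytokines and with a transferrin receptor among them, 2 rose and none fell in edgeR. Il4ra, of the interleukin-4 receptor, was at 28.9 and 52.7 CPM in KO, against 11.1, 9.68 and 11.7 CPM in control libraries, a 3.79-fold rise (adjusted p = 0.0021 in edgeR) that passed in all 12 alternatives. Csf2rb2, the mouse interleukin-3 receptor beta chain, rose 1.75-fold (adjusted p = 0.019 in edgeR), a call lost without control replicate 1 or 2 (adjusted p of 0.098 and 0.09). Its level was 13.7 and 10.6 CPM in KO and 6.63, 6.25 and 7.77 CPM in control libraries. Without a filter on low values Podxl, Stat2, Pim3, Pik3r1, Gab1 and Csf2rb2 also missed the threshold (edgeR adjusted p of 0.076 to 0.16).

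**Figure D4:**
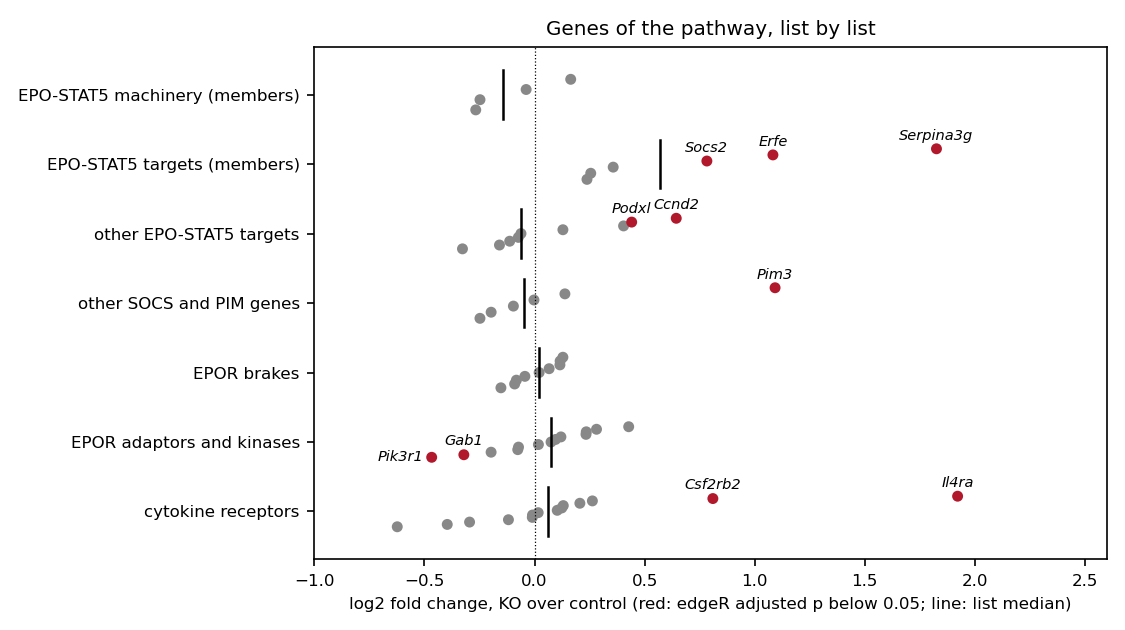
Log2 fold change, KO over control, of every tested gene of 7 lists, 1 point per gene, with a vertical line at the list's median; red points have an edgeR adjusted p below 0.05 and are named. The 4 machinery genes lie within 0.27 of 0. Of the 6 listed targets, the 5 other than Serpina3g, which had to be higher in KO to be tested, all lie above 0. Of all genes tested, 52.5% lie above 0.

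Genes of red cells were abundant in every library, and markers of other cell types were detected too. Slc4a1, the red cell anion exchanger, was at 17870 and 15773 CPM in KO and 16666, 19423 and 18721 CPM in control libraries. None of 10 erythroid markers was called in edgeR; 3 were called lower by DESeq2 and 0 by limma-voom, and 4 had an unadjusted edgeR p below 0.05. All 10 lay below 0, with a median log2 fold change of -0.21, while 6171 of all 13000 genes tested lay below 0. The sum of the 10 was 52817 and 42200 CPM in KO and 48614 to 58555 CPM in control libraries. Of 10 macrophage markers 5 fell in edgeR, and their sum was 97.5 and 92.5 CPM in KO and 123 to 136 CPM in control libraries, with no marker at 0. The 5 were Cd5l, Adgre1, Marco, Vcam1 and C1qc. The count was 2, 0 and 1 without control replicate 1, 2 and 3, and 3 without KO replicate 2 or without a filter on low values. Macrophages of the fetal liver also express STAT and SOCS genes, and the part of these markers in the values above was not tested. None of the tested granulocyte (10), megakaryocyte (7), mast cell and basophil (4), hepatocyte (8), endothelial (5) and lymphoid (4) markers was called in edgeR, where 7 had an unadjusted p below 0.05, limma-voom called 0 and DESeq2 called 1, a megakaryocyte marker. Fcer1a and Cd3e, which mark mast cells and T cells, had no count in any library. Their most abundant genes were Mpo at 457 to 520 CPM in KO and 383 to 548 CPM in controls, Itga2b at 33.8 and 57.5 CPM in KO and 28.7 to 33.0 CPM in controls, Hdc at 27.7 and 26.2 CPM in KO and 16.5 to 23.2 CPM in controls, and Afp at 131 and 166 CPM in KO and 113 to 171 CPM in controls. Stab2 was at 13.3 and 14.9 CPM in KO and 15.8 to 19.6 CPM in controls, and Ptprcap at 5.07 and 7.19 CPM in KO and 6.33 to 6.95 CPM in controls. Control replicate 3 held 1142 counts of 4 Y-linked genes (Uty, Ddx3y, Kdm5d and Eif2s3y) and the other libraries 1 or 2. It also held 7882 counts of Xist, the RNA of the inactive X chromosome of female cells, against 13016 and 12167 in KO and 15953 and 13058 in the other control libraries, so RNA of both sexes was present in it. Without that library Erfe stayed past the threshold (adjusted p = 0.005) and Socs2 did not (0.078).

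The genes most like Epor over the 5 libraries, by the Euclidean distance between log2 CPM values centred on each gene's mean, were Abhd16a, Vrk3 and Nmral1, at distances of 0.031 to 0.039 among 7627 genes of at least 10 CPM. Abhd16a was at 63.3 and 66.1 CPM in KO and 60.7, 71.9 and 67.6 CPM in control libraries, and like Epor it was lowest in control replicate 1 and highest in control replicate 2. For Erfe they were Nlgn2, Dcbld2 and H2-K1, at larger distances of 0.22 to 0.24. Nlgn2 was at 12.7 and 17.0 CPM in KO and 7.01, 7.85 and 7.28 CPM in control libraries, with KO replicate 2 the higher of the pair, as for Erfe. Over 5 libraries this likeness is a description, with no test.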

How the data were processed

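RNA was measured in 5 libraries, 2 KO and 3 control, grouped by title. Per the labels' protocols, TER119-stained cells were sorted, mRNA was purified and a kit for the Ion Proton platform was used. HTSeq, STAR, Bowtie and cutadapt are the tools, and mm10 the build, per the submitters' processing notes; their settings, strand use and multi-mapping are not given in the sources at hand. The authors deposited whole-number counts per gene, not normalised. Of 39179 gene IDs, 37607 matched a GENCODE M21 symbol; no column was left out, and 1 gene of the wider lists is not reported here. Totals were 13187094 and 14986630 counts in KO and 13543392 to 15366021 counts in control libraries.

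KO was compared with control with edgeR 4.0.16 in R 4.3.3 (quasi-likelihood test, TMM, filterByExpr, group only, 3 residual degrees of freedom, Benjamini-Hochberg over all 13000 genes kept, threshold 0.05). Standard errors come from the F statistic. The steps were tested on simulated data. RPKM used merged exon length. Motifs were searched on both strands. Alternatives were RLE scaling, DESeq2 1.42.0, limma-voom (limma 3.58.1), no filter, at least 5 CPM in 2 libraries, no globin and mitochondrial genes, a replicate block and each library left out. The 10 genes and all lists were chosen with earlier results of these data known. Named were the 10 genes, Csnk2b, up to 4 called genes of each list or else its most abundant, and the 3 genes most like Epor and Erfe. Bcl2l1, Tfrc, Stat3, Socs1, Gdf15, Ilkap, Gm26885, Gm17040, Ptpn6, Sh2b3, Fcer1a, Cd3e, Xaf1, C1qc, Xist and the Y-linked genes were named after their values were seen.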

Additional observations from a re-analysis of the deposited data

How the results depend on the processing

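Erfe passed in all 12 alternatives. Of the 9 genes other than Serpina3g, Erfe and Socs2 were called higher in edgeR with all libraries and none fell. With any 1 control left out, Erfe alone of the 9 was called higher and none fell. Jak2 had a log2 fold change of -0.38 without KO replicate 1. Over all genes, 210 to 1709 rose and 31 to 1247 fell when 1 library was left out, beside 669 and 238 with all; the highest counts came without KO replicate 1, where a lone KO library is assumed to vary like the controls. With no filter on counts, 21077 genes were tested, 235 rose and 53 fell, and 9 genes of the wider lists were called, beside 18; with 1 library left out that number was 9 to 29. Epor ran from -0.0978 (without control replicate 1) to 0.0111 (without control replicate 2). The median of all genes moved by less than 0.03 under every alternative. With a replicate block Erfe and Socs2 were again the genes of the 9 called higher, and 0 fell (702 and 171 over all genes). A count of 3 of the 10 genes in that fit includes Serpina3g, which had to be higher in KO to be tested. Gab1 missed the threshold with the block (adjusted p = 0.089 in edgeR). Same-numbered libraries shared only a number, their deviations correlating at 0.015 and 0.068. Serpina3g was not tested at 5 CPM or more. Read counts carry no molecular identifiers, and 2 KO libraries limit every interval.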
